A study of Mus musculus with 20 samples.

Results

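Potassium channel genes were followed in RNA bound to AGO2 and in whole-tissue mRNA of the mouse hippocampus. Members were all genes whose symbol begins with Kcn, apart from Kcnj10 and Kcne2. There were 95 such genes, of which 87 were in both annotations and 8 were in the mRNA annotation alone. In the RIP-seq, in which GFP-tagged AGO2 is precipitated with the RNA it holds and reads are counted per annotated 3′UTR, the members had 163 of 38158 3′UTRs. Of these, 50 3′UTRs from 45 genes had at least 10 counts in each of the 8 libraries and were tested, among 8203 3′UTRs of all genes. In the mRNA-seq, 70 of the 95 members were tested in each of the experiments, and 6 had a count of 0 in all 12 mice.

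Adult male C57BL/6 mice received AAV5 in the hippocampus, and each vector expressed its product from the synapsin promoter, which is active in neurons. The RIP-seq had 4 groups of 2 libraries, each library from 2 pooled hippocampi: GFP-AGO2-miR292sponge (miR292sp), GFP-AGO2-miR124sponge (miR124sp), GFP-AGO2-miR125sponge (miR125sp) and sham-injected mice without GFP-AGO2. A sponge is a transcript with many binding sites that takes a microRNA (miRNA) away from its targets, and miR292sp, against a miRNA for which the study expected no activity in these neurons, was the control. The mRNA-seq had 3 mice per group: GFP-miR124sp with its own GFP mice, and GFP-miR125sp with other GFP mice. The tissue was whole hippocampus, although the labels give the cell type as hippocampal neurons, so that fewer cells of a type and less RNA per cell cannot be told apart in the mRNA-seq.

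Total counts ran from 2417942 to 5072501 in the RIP libraries and from 6950522 to 27833176 in the mRNA libraries. A list of 14 neuron markers was detected in full in the mRNA-seq, with a summed level between 6531 and 8224 CPM (counts relative to the library total, scaled by TMM) in all 12 mice. Members took 0.885% to 1.02% of the counts of the RIP libraries. Among the mRNA libraries their share was 0.313% to 0.337% in the GFP mice of the miR-124 experiment and 0.399% to 0.419% in the GFP mice of the miR-125 experiment. It was 0.403% to 0.491% with miR124sp and 0.405% to 0.423% with miR125sp. The GFP mice of the miR-124 experiment therefore lay below all 9 other mice before any gene was tested.

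Potassium channels let potassium leave or enter a cell and so set its resting potential, the shape of its action potentials and its firing rate. Voltage-gated (Kv) pores open on depolarisation, calcium- and sodium-activated pores follow ion levels inside the cell, inward rectifiers (Kir) and K2P leak channels hold the resting potential, and auxiliary subunits change the trafficking and gating of the pores. miRNAs guide AGO2 to sites in 3′UTRs, mostly through pairing of their bases 2 to 8, the seed, and AGO2 binding lowers translation and RNA stability. Both miR-124 and miR-125 are abundant in neurons.

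Levels in the 6 GFP mice are given as scaled CPM per kilobase of transcript, which allows different genes to be compared. Kcnj3, a subunit of the G protein-gated inward rectifiers, had the highest mean over these mice, with 40.1, 56.0 and 64.8 (lowest, median and highest mouse). Kcnk1, a K2P leak channel, had 46.3, 50.4 and 56.5. Kcnd2, the Kv4 pore of the dendritic A-type current, had 35.5, 49.3 and 59.5. These ranges overlapped, and so did those of the next members, Kcnmb4 (a subunit of the BK channel; median 45.5), the inward rectifier Kcnj4 (49.2), Kcna1 (39.3), Kcnh3 (36.2), the inward rectifier Kcnj9 (33.9), Kcnc4 (32.9) and Kcna2 (32.7). From Kcnj3 at 53.7 ± 10.2 (SD, n = 6) to Kcna2 at 33.4 ± 7.40, neighbours in the order by mean lay within their spread between mice. That spread includes the gap between the experiments. Genes were not compared within mice, and the order was not tested. The order also depended on the experiment: in the GFP mice of the miR-124 experiment Kcnmb4 had 46.2, 58.1 and 42.9 and Kcnk1 46.3, 48.5 and 50.3, against 42.7, 40.1 and 54.6 for Kcnj3. The plot of levels shows that for many of them the GFP mice of the miR-124 experiment lay below those of the miR-125 experiment.

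**Figure D1:**
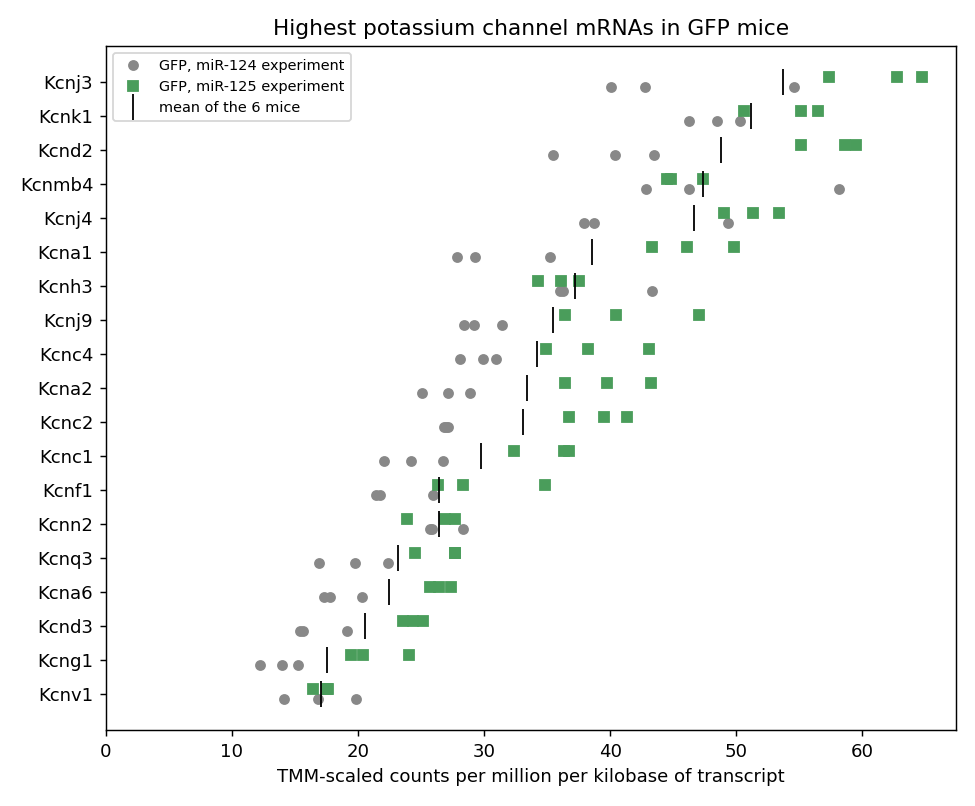
Level of 19 of the 20 highest potassium channel mRNAs in the 6 GFP mice, in TMM-scaled CPM per kilobase of transcript on a linear axis. Each point is a mouse, circles for the miR-124 experiment and squares for the miR-125 experiment, and the bar is the mean of the 6 mice. For Kcna1, Kcna2 and Kcnd2 all circles lie below all squares, while for Kcnmb4, Kcnh3 and Kcnv1 they are mixed.

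These levels are uncertain for members with several RefSeq transcripts. The 27 members with several transcripts had a median of 90 counts over the 12 mice, against 2500 for the 68 with a single one. Kcnma1, the pore of the BK channel, has 22 RefSeq transcripts and had 6 mRNA counts over the 12 mice, and Kcnq5, a pore of the M current, has 2 and had 0. Their 3′UTRs had 3782 and 2504 counts over the 8 RIP libraries. The sources used here do not say to which transcript a shared read was assigned.

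The first RIP comparison, of miR292sp with sham, asks which 3′UTRs came down with AGO2. Counts were divided by the mean of Gapdh and its 50 neighbours on either side in the ranked list (the Gapdh-centred scaling), and the relative enrichment is the mean of the miR292sp libraries over the mean of the sham libraries. Kcnj2, an inward rectifier that holds the resting potential, was the most enriched member. It had 1237 and 717 counts with miR292sp and 49 and 28 in sham, and its scaled values were 48.8 and 26.9 times the sham mean. The libraries did not overlap, and the log2 fold change was 5.22 ± 0.43 (SE, n = 2 against 2; edgeR adjusted p = 1.08e-08). Kcnk3, an acid-sensitive K2P leak channel, followed at 16.5 and 16.6 times the sham mean (825 and 874 against 87 and 63 counts; log2 fold change 4.04 ± 0.28). Kcnc4, a fast Kv3 pore, stood at 14.4 and 10.5 times (1419 and 1090 against 165 and 129 counts; 3.64 ± 0.24). Both were far above sham in each library. Kcnip2, a calcium-binding subunit of Kv4 channels, had 7396 and 8133 counts against 1343 and 1293 in sham and lay 8.27 and 8.64 times above the sham mean (3.08 ± 0.15).

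In all, 13 of the 50 member 3′UTRs (26.0%) were enriched more than 4-fold, the study's limit for a target, against 27.2% of all 8203 tested 3′UTRs. Further members past this limit were the ATP-sensitive inward rectifier Kcnj11 (7.89-fold), the silent Kv subunit Kcns3 (6.52), the K2P channel Kcnk10 (6.25), Kcnk1 (4.42), the silent Kv subunit Kcng1 (4.31), the Kv3 pore Kcnc1 (4.13), the Kv1 beta subunit Kcnab3 (4.07) and Kcnmb4 (4.02 for its 3′UTR of 377 bases). Among those outside it, the ERG pore Kcnh2 stood at 3.37-fold. Past the test, 32 member 3′UTRs were higher with miR292sp, 0 were lower and 18 did not pass, where 59.4% of all tested 3′UTRs were higher and 0.585% lower. At an unadjusted p under 0.05 the edgeR fit had 33 members higher and 0 lower. The member median of the log2 fold change was 1.34, and the median over all 3′UTRs was 1.26.

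The direction rests on the scaling. With TMM, which takes most 3′UTRs as unchanged and moved the median of all 3′UTRs to -0.11, 10 members were higher and 15 lower (20.0% and 30.0%), where 21.6% of all 3′UTRs were higher and 19.1% lower. On the log2 scale with TMM Kcnj2 was at 3.84, Kcnk3 at 2.67, Kcnc4 at 2.26, Kcnip2 at 1.72 and Kcnj11 at 1.60, since a change of scaling shifts every 3′UTR by nearly the same amount. Without sham replicate 8, 21 members were higher and 4 lower under the Gapdh-centred scaling.

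Families differed in how many of their 3′UTRs passed. All 5 tested 3′UTRs of the K2P leak channels (median log2 fold change 2.15) and all 5 of the Kv3 pores (1.82) were higher, where 59.4% of all tested 3′UTRs were. Of the Kv1 pores, which control excitability of axons, 5 of 6 were higher, of the electrically silent Kv subunits 4 of 5, and of the ether-a-go-go channels 2 of 3. Auxiliary subunits had 4 of 6 and the inward rectifiers 3 of 8. None of the 3 Kv4 3′UTRs passed, with log2 fold changes between 0.32 and 0.68, and none of the 3 of the BK and Slack family, with values between -0.20 and 0.52. These calls rest on the Gapdh-centred scaling: with TMM, Kcnk3 and Kcnk1 were the 2 of 5 K2P 3′UTRs still higher, the Kv4 pores Kcnd3 (-1.05) and Kcnd2 (-0.90) were lower, and so were Kcnt2 (-1.57), Kcnma1 (-0.86) and Kcnt1 (-0.85) of the BK and Slack family. Of the Kv3 pores, Kcnc4 (2.26) and the Kcnc1 3′UTR of 5042 bases (0.69) stayed higher with TMM, and the others did not pass. These are counts within families of 3 to 8 3′UTRs, and the difference between families was not tested.

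The lowest member 3′UTRs were those of Kcnmb4 (1215 bases; 0.402-fold), Kcng3 (0.625), Kcnj6 (2471 bases; 0.741), Kcnj16 (0.761) and the ERG pore Kcnh7 (0.834). None passed the test under the Gapdh-centred scaling. With TMM all 5 were lower than in sham, with log2 fold changes of -2.62 for Kcnmb4, -2.08 for Kcng3, -1.80 for Kcnj6, -1.80 for Kcnj16 and -1.63 for Kcnh7. Without sham replicate 7, Kcnh7 (0.13), Kcnj16 (0.89), Kcnj6 (0.05) and Kcng3 (0.58) had log2 fold changes above 0 under the Gapdh-centred scaling. Without sham replicate 8, Kcnh7 (-0.71), Kcng3 (-1.68) and Kcnj6 (-0.98) passed as lower. Kcnmb4, Kcnj6, Kcnc1 and Kcna6 each had a pair of measured 3′UTRs, and in each pair 1 lay higher. Kcnmb4 was at 4.02-fold for its 3′UTR at chr10:115854917-115855293 and at 0.402-fold for that at chr10:115899702-115900916 (NCBIM37, minus strand), which in GENCODE M1 falls within an intron of 2 other Kcnmb4 transcripts. Kcnj6 was at 1.40-fold for the 3′UTR of 1280 bases, which is intronic in 1 other Kcnj6 transcript. It was at 0.741-fold for that of 2471 bases, which is intronic in 3 others. Kcnc1 was at 4.13-fold, for a 3′UTR that is intronic in 1 other Kcnc1 transcript, and at 3.17-fold for one that is intronic in 0. Kcna6 was at 2.54-fold and 1.24-fold. The Kcna6 pair shares 1647 bases in the annotation. The 3′UTR at 2.54-fold was counted over 379 bases, against 3499 annotated, so the bases shared in the counts are not known. The sources do not say how shared reads were assigned.

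**Figure D2:**
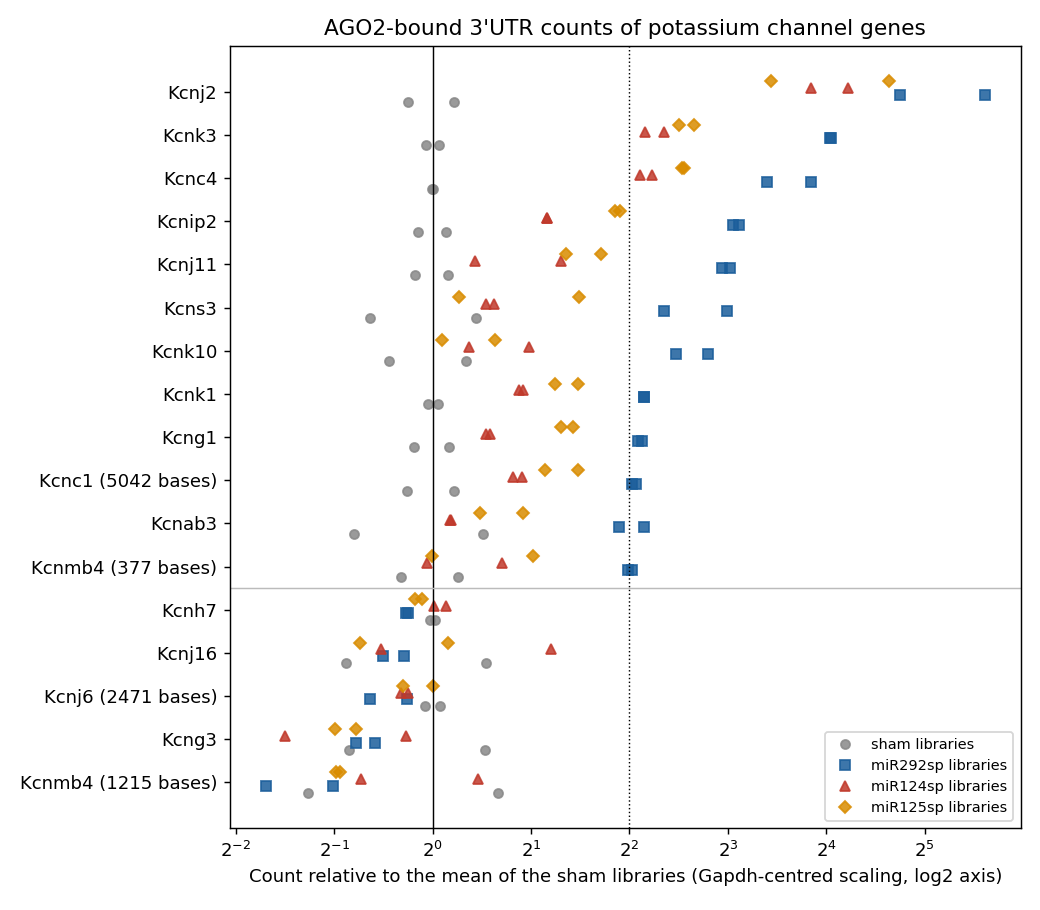
Counts of 17 potassium channel 3′UTRs in each of the 8 RIP libraries, relative to the mean of the sham libraries after the Gapdh-centred scaling, on a log2 axis. The 12 above the grey line exceeded 4-fold (dotted line) with miR292sp and the 5 under it were the lowest members. For all 12, both miR292sp libraries (squares) lie above both sham libraries (circles), and miR124sp (triangles) and miR125sp (diamonds) lie lower on this scale.

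Sites for the inhibited miRNAs were looked for in the annotated 3′UTRs, which were available at the length counted for 47 of the 50 member rows. The other 3 had none of that length. The letters GTGCCTT (miR-124) and CTCAGGG (miR-125), which pair with miRNA bases 2 to 8, were searched on the transcript strand only. The miR-125 sequences from RefSeq (GRCm38.p6) are shown with the seed in capitals, since both forms share it.
miR-125a-5p: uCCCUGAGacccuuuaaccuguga
miR-125b-5p: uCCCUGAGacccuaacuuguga
A miR-124 match lay in 9 member 3′UTRs (19.1%, against 16.8% of 7445 tested 3′UTRs of all genes and 18.4% at the members' lengths). A miR-125 match lay in 13 (27.7%, against 16.5% and 18.3%). Member 3′UTRs had a median of 1756 bases, against 1398 over all.

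The sites shown here are from the 3′UTRs that the comparisons turn on, read from NCBIM37 (mm9), 5′ to 3′ on the transcript strand with the match in capitals. For miR-124 they are the single matches of Kcnj11 (chr7:53353180-53353209, minus strand), Kcnh7 (chr2:62532825-62532854, minus) and Kcnj16 (chr11:110888325-110888354, plus), whose counts changed with miR124sp, and those of Kcnk10 (chr12:99672907-99672936, minus) and Kcnk2 (chr1:191033192-191033221, minus), which are followed by an A, a context known to strengthen a site.
Kcnj11: ggtggggtagcgGTGCCTTgtctgggttac
Kcnh7: ggcaaaaaccctGTGCCTTttctgattgtg
Kcnj16: ttgattcttttgGTGCCTTctttctctctc
Kcnk10: acactgagacacGTGCCTTaaatagacttc
Kcnk2: aattttctgccaGTGCCTTatcttatgaag
For miR-125 they are the first match of Kcnh7 (chr2:62540900-62540929, minus), the only member called with miR125sp, and those of the highly enriched Kcnk3 (chr5:30926051-30926080, plus) and Kcnc4 (the first of 2, chr3:107242103-107242132, minus).
Kcnh7: ctctctacttgaCTCAGGGgctcacaaggt
Kcnk3: tctgggaacattCTCAGGGgctcctgagag
Kcnc4: tcccatgcgactCTCAGGGcccagagccat
Further miR-124 matches were in Kcnc1, Kcna1 and Kcnc2. Further miR-125 matches were in Kcnc1, Kcnip3, Kcnh3, Kcna1, Kcnd3, Kcnt1, Kcns3 and Kcnf1. Kcnj2 and Kcnip2, among the 4 most enriched members, had neither.

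The sponge comparisons ask whether AGO2-bound counts changed when miR-124 or miR-125 was inhibited, with TMM scaling and miR292sp as the control. With miR124sp, 4 member 3′UTRs were higher and 2 lower of 50 (8.00% and 4.00%), where 5.1% of all 3′UTRs were higher and 3.46% lower. Kcnip2 had 1531 and 1673 scaled CPM with miR292sp and 899 and 811 with miR124sp. Both miR124sp libraries lay under both control libraries, and the log2 fold change was -0.91 ± 0.16 (edgeR adjusted p = 0.00259). Kcnj11, which holds a miR-124 match, had 124 and 137 with miR292sp and 47.0 and 78.2 with miR124sp (-1.06 ± 0.31, adjusted p = 0.0416). With miR125sp, for which it has no match, Kcnj11 had 90.8 and 74.4 (-0.66 ± 0.30, adjusted p = 0.279). Between the sponges it did not pass (-0.40 ± 0.31, adjusted p = 0.932). Of the 9 member 3′UTRs with a miR-124 match, only that of Kcnj11 passed as lower, and those of Kcnh7 and Kcnj16 passed as higher. Kcnip2 and Kcnj11 were among the 5 members with the highest enrichment over sham. These libraries share the miR292sp control with that enrichment.

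The members that rose with miR124sp were 4 of the 5 with the lowest enrichment, again over a shared control. Kcnh7 had 434 and 449 with miR292sp, 1130 and 1113 with miR124sp and 1415 and 1316 in sham, so that the sponge libraries lay between control and sham (log2 fold change 1.34 ± 0.16, adjusted p = 1.27e-04). Its 3′UTR holds a miR-124 match and shares 696 of 9532 bases with the 3′UTR of Gca on the other strand, and without strand information reads of Kcnh7 and Gca cannot be told apart there. The 3′UTR of 2471 bases of Kcnj6, an inward rectifier of the G protein-gated channel, had 24.4 and 33.1 against 65.8 and 62.2 (1.15 ± 0.32, adjusted p = 0.0335). The 3′UTR of 1215 bases of Kcnmb4 had 3.31 and 5.55 against 14.0 and 28.9 (2.26 ± 0.61, adjusted p = 0.0315). Kcnj16, an inward rectifier of glia and epithelia, had 11.8 and 14.4 against 83.9 and 22.8 (2.03 ± 0.58, adjusted p = 0.0398), and without miR124sp replicate 3 its log2 fold change was 0.80 with an adjusted p of 0.458. In none of the 4 did the miR124sp and miR292sp libraries overlap.

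Leaving out 1 library at a time left 1 or 2 members higher and 0 to 2 lower. The count of higher members was 2 without miR124sp replicate 3 or 4 and 1 without miR292sp replicate 5 or 6, and that of lower members was 1 without miR124sp replicate 3 or miR292sp replicate 5 and 0 without miR292sp replicate 6. Kcnh7 passed each time. Under the Gapdh-centred scaling, which moved the median of all 3′UTRs to -0.97, 0 members were higher and 25 lower (25 of 50, beside 50.04% of all 3′UTRs), with Kcnip2 at -1.92, Kcnj11 at -2.05 and Kcnh7 at 0.34. The summed level of astrocyte markers was 15941 to 16314 scaled CPM in the miR292sp libraries, 44016 to 48332 with miR124sp, 36430 to 38189 with miR125sp and 60017 to 64236 in sham. Astrocyte markers moved in the same comparison: of 11 tested 3′UTRs, 5 were higher with miR124sp and 0 lower (median 0.89), and of 14 for oligodendrocytes 3 were higher and 1 lower (0.73). The part of glial RNA in the member results was not tested.

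With miR125sp, 1 member was higher and 0 lower, where 1.18% of all 3′UTRs were higher and 0.232% lower. Kcnh7 had 825 and 820 scaled CPM, against 434 and 449 with miR292sp (0.90 ± 0.15, adjusted p = 0.00889). Its 3′UTR holds 2 miR-125 matches and, at 9532 bases, was the longest of the 47 member 3′UTRs searched (median 1756). Whether the matches bear on this rise was not tested. Leaving out any of the 4 libraries compared left 0 members higher, and the Gapdh-centred scaling gave 0 higher and 23 lower (46.0%, against 38.2% of all 3′UTRs). The members next in p were the 3′UTR of 2471 bases of Kcnj6 (1.07 ± 0.32, adjusted p = 0.0983), the sodium-activated pore Kcnt1 (1.05 ± 0.32, 0.114), Kcnd3 (0.57 ± 0.19, 0.137) and Kcnk10 (-1.48 ± 0.51, 0.154), and none passed. At an unadjusted p under 0.05, 5 members were higher and 4 lower.

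Set directly against each other, miR124sp and miR125sp differed in 0 members by edgeR, where 0.0% of all 3′UTRs were higher with miR124sp and 0.0122% lower. At an unadjusted p under 0.05, 1 member was higher and 2 lower, and DESeq2 also called 0. In simulated data the edgeR fit called 33.5% of 2-fold and 88.5% of 4-fold changes in this comparison, so smaller differences can go uncalled. The smallest p-values were those of Kcnip2 (log2 fold change -0.49 ± 0.16, adjusted p = 0.862), Kcnh7 (0.45 ± 0.15, 0.862) and Kcng1 (-0.58 ± 0.22, 0.862), followed by Kcnmb4 (1.14 ± 0.59 for the intronic 3′UTR, 0.921) and Kcnj16 (1.09 ± 0.57, 0.921).

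The study also ranked enrichment over sham. Of the 13 members above 4-fold with miR292sp, 8 were still among the 2230 highest 3′UTRs with miR124sp and 9 with miR125sp, while 21.3% and 17.2% of all 3′UTRs above 4-fold dropped out. The members that dropped out with miR124sp were Kcns3, Kcnk10, Kcng1, Kcnab3 and Kcnmb4, and with miR125sp all of these but Kcng1. Kcnk10 holds a miR-124 match and went from 6.96 and 5.54 times the sham mean with miR292sp to 1.29 and 1.97 with miR124sp, but also to 1.55 and 1.06 with miR125sp, for which it has no match. All groups in these ranks share the sham libraries.

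**Figure D3:**
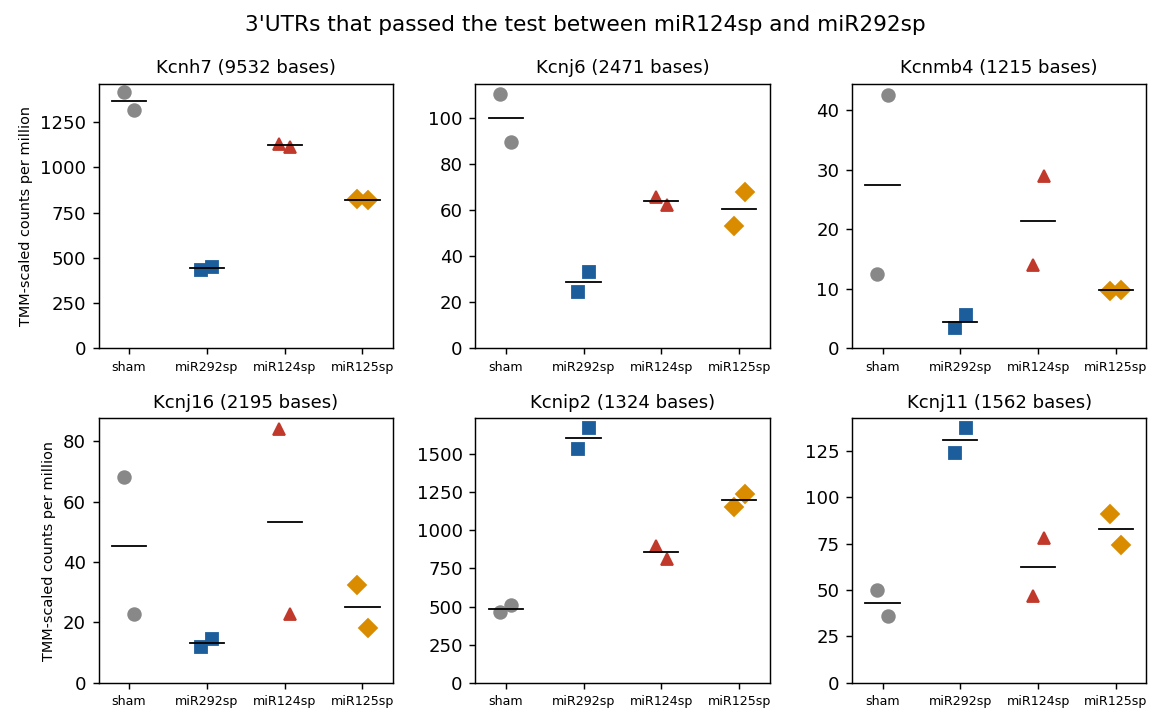
Scaled CPM (TMM, linear axes from 0) of the 6 potassium channel 3′UTRs that passed the test between miR124sp and miR292sp, in each library, with the group mean as a line. In the first 4 panels the miR292sp libraries are the lowest and miR124sp lies above them, and in Kcnip2 and Kcnj11 the miR292sp libraries are the highest.

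In the mRNA-seq, miR124sp was compared with the GFP mice of its experiment to see whether mRNA levels changed as well. Of 70 members, 29 were higher (41.4%), 1 was lower and 40 did not pass, where 12.6% of all 12967 genes were higher and 10.7% lower. The member median of the log2 fold change was 0.34 and that of all genes -0.01. Kcnab3, the Kv1 beta subunit, changed most: it had 33.9, 31.3 and 31.6 scaled CPM in the GFP mice and 123, 108 and 52.3 with miR124sp (log2 fold change 1.56 ± 0.25, edgeR adjusted p = 0.00478). The ERG pore Kcnh7 had 15.4, 14.0 and 15.9 in the GFP mice and 49.7, 51.1 and 25.9 with miR124sp (1.50 ± 0.22, adjusted p = 0.00412). In both genes no mice overlapped, and miR124sp replicate 9 lay nearest to the GFP mice.

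By family, Kcnb2, a pore of the delayed rectifier, rose by 0.80 ± 0.13. Of the Kv1 pores 3 of 6 were higher, Kcna1 (0.73 ± 0.10), Kcna2 (0.84 ± 0.15) and Kcna6 (0.68 ± 0.10), and the Kv3 pores Kcnc1, Kcnc2 and Kcnc4 rose by between 0.46 and 0.70. Kcna1 had 250, 262 and 316 in the GFP mice and 462, 458 and 439 with miR124sp, so that here replicate 9 stood close to the other 2. Of the ether-a-go-go channels (EAG, ERG and ELK) 4 of 7 were higher, of the inward rectifiers 4 of 10 and of the K2P channels 4 of 9. Kcnj4 had 83.3, 81.6 and 106 against 148, 153 and 136 (0.70 ± 0.11). The inward rectifier Kcnj9 rose by 0.92 ± 0.17 and the ERG pore Kcnh2 by 0.55 ± 0.09. The silent subunit Kcns1 rose by 1.02 ± 0.16, the M-current pore Kcnq3 by 0.67 ± 0.10, the Kv4 pore Kcnd2 by 0.55 ± 0.09 and its subunit Kcnip4 by 1.18 ± 0.20. None of the 3 tested genes of the BK and Slack family (Kcnt1, Kcnt2 and Kcnu1) passed. The BK pore Kcnma1, with 6 counts over the 12 mice, was not among them. The member that fell was Kcnn3, a calcium-activated SK pore, by 0.30 ± 0.08 on the log2 scale (34.1, 34.1 and 35.2 against 26.3, 27.3 and 29.8).

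miR124sp replicate 9 was the lowest of the 3 sponge mice in 28 of the 29 higher members. Its median distance from the GFP mean over these members was 0.42 on the log2 scale, against 0.75 and 0.74 for replicates 14 and 2. Leaving out 1 mouse at a time left 16 to 34 members higher and 0 to 6 lower, with 16 higher without GFP replicate 15 or without miR124sp replicate 2. The lower count was 6 without miR124sp replicate 9, 2 without GFP replicate 8 and 0 without GFP replicate 15, miR124sp replicate 14 or miR124sp replicate 2. Of 8 tested members with a miR-124 match 5 were higher, and of 31 with a tested 3′UTR and no match 15 were.

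The number of higher members depended on which GFP mice were the controls, an alternative chosen after the data were seen. Against the GFP mice of the miR-125 experiment, miR124sp had 3 of 71 members higher and 3 lower, where 0.917% of all genes were higher and 1.21% lower. The higher were Kcnj4 (0.40, edgeR adjusted p = 0.0270), Kcns1 (0.92, 0.0352) and the noncoding RNA Kcnq1ot1 (1.18, 0.0332). The lower were Kcnd3 (-0.48), Kcng1 (-0.88) and Kcnj6 (-0.37). Kcnab3 was at 1.20 (adjusted p = 0.0508) and Kcnh7 at 0.74 (0.115), and neither passed. At an unadjusted p under 0.05 the same fit had 21 members higher and 3 lower. Of the 71 members 46 lay above 0 and 25 below, with a median log2 fold change of 0.12, against 5.5e-05 for all genes. The GFP groups themselves, which both received AAV5-GFP, differed in 27 of 70 members: 24 were lower in the miR-124 experiment and 3 higher, where 16.1% of 13080 genes were lower and 14.6% higher. Kcnc2 had 168, 166 and 167 scaled CPM in the GFP mice of the miR-124 experiment and 245, 256 and 228 in those of the miR-125 experiment (log2 difference -0.54 ± 0.07, edgeR adjusted p = 3.77e-04). With miR124sp it had 239, 233 and 226, above its own GFP mice (0.49 ± 0.06, adjusted p = 0.00368) and at -0.06 against the other GFP mice (adjusted p = 0.611). For Kcna1 the difference between the GFP groups was -0.60 beside a miR124sp effect of 0.73, for Kcna6 -0.53 beside 0.68, for Kcnd2 -0.54 beside 0.55, for Kcnh7 -0.75 beside 1.50 and for Kcnab3 -0.35 beside 1.56. These pairs share the GFP mice of the miR-124 experiment. The experiment and the GFP groups cannot be told apart.

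**Figure D4:**
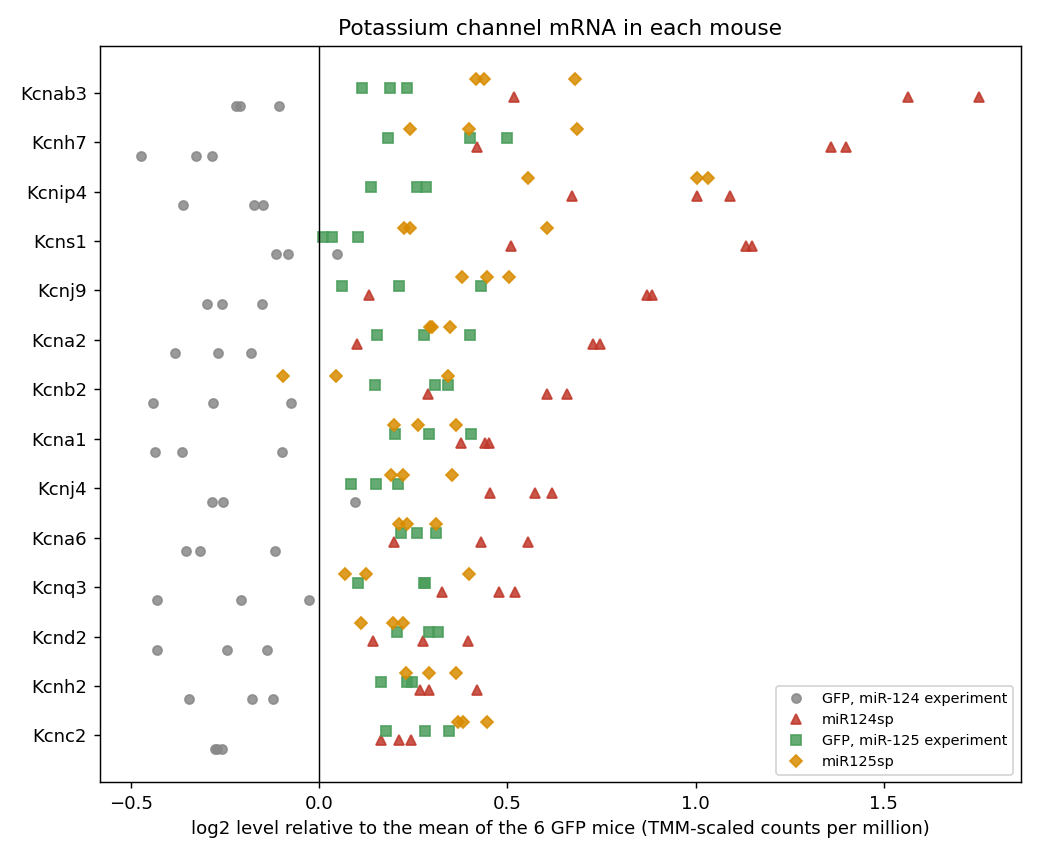
Levels of 14 of the 15 potassium channel mRNAs with the smallest p in the miR124sp comparison, in each of the 12 mice, as log2 scaled CPM relative to the mean of the 6 GFP mice. The GFP mice of the miR-124 experiment (circles) lie lowest except in Kcnj4, Kcns1 and Kcnb2, where they overlap other mice, and for Kcnc2, Kcnd2 and Kcna1 the miR124sp mice (triangles) sit with the GFP mice of the miR-125 experiment (squares) and the miR125sp mice (diamonds), while for Kcnab3, Kcnh7 and Kcns1 2 of the 3 triangles lie to the right of all other mice.

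Glial RNA differed between the same mice. The summed level of 11 astrocyte markers was 5235 to 6256 CPM in the GFP mice of the miR-124 experiment, 4212 to 4438 in those of the miR-125 experiment, 4312 to 4429 with miR124sp and 3949 to 4051 with miR125sp. Of 10 tested, 6 were lower and 0 higher with miR124sp. The oligodendrocyte list summed to 1337 to 1714 with miR124sp, against 987 to 1072 in its GFP mice, and 9 of 12 tested were higher. Of the neuron markers 5 of 13 were higher and 1 lower, with a median log2 fold change of 0.26. Interneuron markers summed to 1490 to 1763 CPM with miR124sp, 1021 to 1380 in its GFP mice and 1434 to 1657 in the other GFP mice. Of 9 tested, 4 were higher with miR124sp (median 0.48), and 4 were lower in its GFP mice than in the other GFP mice. Microglia markers summed to 541 to 558 with miR124sp, against 606 to 687 in its GFP mice, and 5 of 8 were lower. Long transcripts were also more often higher: with non-member genes in 5 equal bins of transcript length, 3.24%, 6.98%, 10.8%, 15.1% and 26.0% were higher from the shortest bin to the longest. In the same bins 1 of 5, 4 of 10, 8 of 19, 8 of 20 and 8 of 16 members were higher. The part of cell composition or of length in the member results was not tested.

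With miR125sp, 0 of 70 members passed the edgeR test, where 0.0554% of 12634 genes were higher and 0.15% lower. At an unadjusted p under 0.05, 10 members were higher and 4 lower, and DESeq2 called 2 higher. The smallest p-values were those of the silent subunit Kcng2 (0.42 ± 0.08, adjusted p = 0.0712), Kcnab3 (0.35 ± 0.08, 0.123), Kcnj6 (-0.28 ± 0.07, 0.143), Kcnip4 (0.64 ± 0.20, 0.231) and Kcnd3 (-0.12 ± 0.04, 0.248). Kcnab3 had 41.7, 42.9 and 39.5 scaled CPM in the GFP mice and 58.5, 48.8 and 49.5 with miR125sp. These did not overlap, although the difference did not pass. Against the GFP mice of the miR-124 experiment, 31 members (43.7%) would have been higher and 4 lower (5.63%), where 18.3% of all genes were higher and 18.7% lower, an alternative chosen after the data were seen.

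The difference between the sponge effects was tested over the 12 mice. The miR124sp effect was above the miR125sp effect in 22 of 71 members and below it in 1, where 7.4% of 13264 genes were above and 7.06% below. With the mark in the count columns' names as a term, an alternative chosen after the data were seen, 7 members were above (9.86%, against 2.47% of all genes) and 0 below. The differences above 0 ran from 0.34 ± 0.09 for Kcnk1 to 1.42 ± 0.28 for Kcnh7 on the log2 scale, and the member below was Kcnj14 at -1.10 ± 0.31. The difference contains that between the GFP groups, and Kcnj14 had 5.05, 5.33 and 3.87 scaled CPM in the GFP mice of the miR-124 experiment and 1.84, 3.96 and 2.77 in the others. Leaving out 1 mouse left 13 to 27 members above and 0 to 2 below. The count above was 14 without GFP replicate 15 of the miR-124 experiment, GFP replicate 14 of the miR-125 experiment or miR124sp replicate 14 or 2, and 13 without miR125sp replicate 9.

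**Figure D5:**
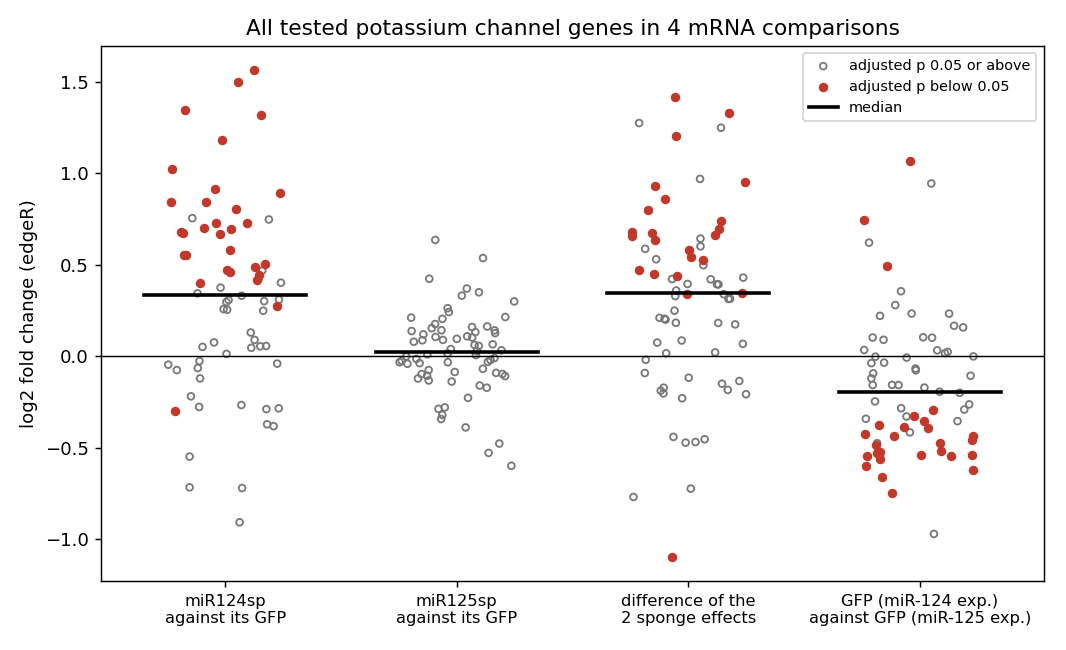
log2 fold changes (edgeR) of all tested potassium channel genes in 4 mRNA comparisons, filled where the adjusted p was below 0.05, with the median as a bar. The members lie mostly above 0 with miR124sp (median 0.34), around 0 with miR125sp (0.02) and mostly below 0 between the GFP groups (-0.20).

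Genes whose proteins work with potassium channels were taken as a list of 39, and 29 were tested in the mRNA-seq. With miR124sp 13 were higher, 1 was lower and 15 did not pass, where 12.6% of all genes were higher and 10.7% lower. The largest changes were in the BK subunits Lrrc38 (1.28 ± 0.25) and Lrrc55 (1.23 ± 0.18), in Lgi2 (1.14 ± 0.16) and in Cntn2, which holds Kv1 channels beside the node of Ranvier (1.02 ± 0.14). Between the GFP groups 13 of the 29 were lower and 0 higher in the miR-124 experiment, where 16.1% of all genes were lower and 14.6% higher. With miR125sp none passed. In the RIP-seq, under the Gapdh-centred scaling, 21 of 26 partner 3′UTRs passed as higher with miR292sp than in sham, 0 passed as lower and 5 did not pass. Of all 3′UTRs, 59.4% were higher and 0.585% lower. With miR124sp 3 partner 3′UTRs were higher and 3 lower than with miR292sp, where 5.1% of all 3′UTRs were higher and 3.46% lower.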

How the data were processed

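RIP-seq and mRNA-seq were measured in mouse hippocampus. The authors deposited raw read counts, per annotated 3′UTR (RIP-seq) and per RefSeq transcript (mRNA-seq), from reads of 50 bases. The study's methods give mm9, the submitters' processing notes name STAR, edgeR and mm10, and the sources do not give the counting program or whether it used strand. Of the 38158 RIP rows 98.02% had a gene name in GENCODE M1 (NCBIM37), and 82.75% had its 3′UTR length. mRNA rows (98.68% with a symbol, the others holding 0.9666% of counts) were summed per symbol.

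RIP 3′UTRs with at least 10 counts in every library were tested in 1 fit of 8 libraries, scaled on Gapdh and its 50 neighbours on either side against sham and by TMM between sponges. mRNA was tested within each experiment after filterByExpr, and the difference of effects and the GFP groups over 12 mice or 6. Tests were edgeR 4.0.16 quasi-likelihood (R 4.3.3) with Benjamini-Hochberg adjustment over all features and a threshold of 0.05. DESeq2 1.42.0, other scalings and filters and left-out libraries were alternatives, and the fits were tested on simulated data. SE is that of the log2 fold change. Except for mice and pooled hippocampi, the labels do not say how replicates were separated, so p-values measure the spread between these samples.

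Named members were those above 4-fold (at most 20) and the 5 lowest over sham, those past the threshold in each other comparison (at most 15 by p, or the 5 smallest p), the 10 highest per kilobase, and those with a seed match or several measured 3′UTRs, plus the 4 most changed channel partners. Members of the channel lists and marker lists were chosen with earlier results of these data known. Some members that this rule names are not reported here.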

Additional observations from a re-analysis of the deposited data

Results flagged for a closer look

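In the 22 members given here the miR124sp and miR125sp effects on mRNA differed, by a test of the difference itself over the 12 mice (edgeR quasi-likelihood, Benjamini-Hochberg adjusted over 13264 genes). The difference, miR124sp effect less miR125sp effect on the log2 scale, was largest for the ether-a-go-go channels Kcnh7 (1.42) and Kcnh5 (1.33), while Kcnh2 had 0.45. The Kv1 beta subunit Kcnab3 had 1.20. Among the Kv1 pores Kcna1 had 0.74, Kcna2 0.80 and Kcna6 0.67, and the Kv2 pore Kcnb2 had 0.93. Among the Kv3 pores Kcnc1 had 0.44, Kcnc2 0.34 and Kcnc4 0.54. The Kv4 pore Kcnd2 had 0.64, the M-current pore Kcnq3 0.67, and the silent subunits Kcng4 and Kcns1 had 0.66 and 0.68. Among the inward rectifiers Kcnj3 had 0.47, Kcnj4 0.58, Kcnj6 0.53 and Kcnj9 0.70. The K2P channels Kcnk1 and Kcnk3 had 0.34 and 0.95. Kcnj14, with -1.10, was the member below 0. Each value holds the difference between the GFP groups as well. Over all members, 7 were above 0 and 0 below past the test with the mark in the count columns' names as a term, and leaving out 1 mouse left 13 to 27 above and 0 to 2 below. Kcnj14 did not pass with that term, nor without GFP replicate 15 or 20 of the miR-124 experiment, GFP replicate 14 or 4 of the miR-125 experiment, miR124sp replicate 14 or 2, or miR125sp replicate 9.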

How the results depend on the processing

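For miR292sp against sham, TMM, DESeq2 size factors and the DESeq2 test gave 10, 10 and 10 members higher and 15, 13 and 15 lower, and left-out libraries gave 21 to 36 higher and 0 to 4 lower. Without sham replicate 7 the sign turned for Kcnh7 (0.13, against -0.71 without sham replicate 8), Kcnj16 (0.89, -1.41), Kcnj6 (0.049, -0.98) and Kcng3 (0.58, -1.68). For miR124sp against miR292sp the Gapdh-centred scaling gave 0 higher and 25 lower, and filterByExpr 1 and 1. The DESeq2 test gave 6 higher and 4 lower, no filter 3 and 4, and a fit of the 4 libraries alone 5 and 4. Left-out libraries gave 1 to 2 higher and 0 to 2 lower. For miR125sp the Gapdh-centred scaling gave 0 higher and 23 lower (Kcnd3 at -0.21), DESeq2 3 higher, and the 4 libraries alone 3 higher and 1 lower, with 0 to 0 in left-out fits. Between the sponges Kcnj16 went to -0.14 without miR124sp replicate 3 and to 1.74 without replicate 4.

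For miR124sp mRNA, a fit of all 12 mice gave 34 higher and 2 lower, and left-out mice 16 to 34 higher and 0 to 6 lower. For miR125sp mRNA, DESeq2 gave 2 and no filter 2 higher, and left-out mice 0 to 1, the 1 without GFP replicate 15. For the difference no filter gave 22 above and 2 below, and left-out mice 13 to 27 above and 0 to 2 below. Alternatives chosen after the data were seen were the other experiment's GFP mice and the mark in the count columns' names as a term. The other GFP mice gave 3 higher and 3 lower for miR124sp (Kcnc2 at -0.061) and 31 and 4 for miR125sp (Kcnj6 at 0.35, Kcnd3 at 0.43). The mark as a term gave 23 members higher (32.9%, against 6.37% of all genes) and 0 lower for miR124sp. For the difference it gave 7 above and 0 below. Seed matches followed by an A were in 2 (miR-124) and 4 (miR-125) members. The cause of these changes was not tested. No paired analysis was possible because no groups compared share 2 replicate numbers. The 2 libraries or 3 mice a group, and the few counts of members with several transcripts, limited the size of change that could be detected.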

Other observations

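Kcnj13, an inward rectifier of the choroid plexus, varied widely between mice of 1 group. It had 21.9, 1.81 and 9.86 scaled CPM in the GFP mice of the miR-124 experiment, 0.594, 1.54 and 16.6 with miR124sp, 8.19, 1.76 and 6.95 in the GFP mice of the miR-125 experiment and 0.243, 11.7 and 2.03 with miR125sp. All groups overlapped, and the summed level of the 7 choroid plexus markers listed beside Kcnj13 ran from 61 to 4160 CPM over the same mice.

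Kcnq1ot1, a noncoding RNA that carries the prefix but encodes no channel, had 79.2, 46.0 and 43.4 in the GFP mice of the miR-124 experiment and 24.3, 34.2 and 24.1 in those of the miR-125 experiment. These groups did not overlap (log2 difference 1.07 ± 0.21, edgeR adjusted p = 0.00300), whereas miR124sp at 76.6, 43.8 and 63.4 overlapped its own GFP mice.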
